A study of Mus musculus with 40 samples.

Results

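Bases inserted at the first Cas9 cut of a lineage-recording array were described in 1 mouse liver library. They are the insertions that the deposited allele list writes between array bases 22 and 23 with no base lost there. The members were chosen by this written position, and 3876 of the 12767 listed alleles carried such an insertion (30.4%, 95% exact binomial interval 29.6 to 31.2%). An allele is one distinct edited array, and each allele held at most 1 such insertion. These alleles held 7473 of the 32342 unique molecular identifiers (UMIs) of the library (23.1%, 22.6 to 23.6%). Since the position chose the members, these shares are a description and were not tested.

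The series holds 40 liver samples of DARLIN mice, 5 animals by the prefixes of their titles, in 18 groups of stage mark and lobe, and files of 1 sample were analysed here. It is the right inferior lobe of animal YK184, with the mark E15.5, from a group of 2 samples whose other sample was not analysed here. The labels state neither what the mark refers to (induction or collection) nor the age of the animal. There are thus no replicates and no comparison between stages, lobes or animals. Intervals cover counting error alone and treat alleles, bases or UMIs as independent draws, and alleles of 1 library are not replicates. UMIs cluster within alleles, so the intervals of UMI shares are likely too narrow. A UMI tags 1 array transcript, so UMIs are counts of RNA molecules, and a larger clone cannot be told apart from more array RNA per cell.

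In DARLIN mice an inducible Cas9 fused to terminal deoxynucleotidyl transferase (TdT) cuts a transgenic array of target sites, here the array at the Col1a1 locus. Cas9 makes a double-strand break a few bases before the PAM of its target, and end joining reseals it. TdT, known from the joining of antigen receptor genes, adds bases to DNA ends without copying a template, and the added bases stay in the array of the cell and its descendants. Col1a1, the gene of a type I collagen chain, lies on chromosome 11 at bases 94936224 to 94953042 in GRCm38.p6. The place of the array relative to the gene is not stated in the labels. The array has 10 targets in a repeat unit of 27 bases, a layout taken from general knowledge, which puts cut 1 between bases 22 and 23 and the last cut between bases 265 and 266. Base 1 is the first base of the array.

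The inserted strings are shown first, read along the array from base 22 towards base 23. They comprised single bases, short runs of A and G, longer strings that pass from G to A, and rare stretches of about the length of a repeat unit. The first 6 strings below were the commonest of their lengths at 3, 4 and 5 bases (the 2 leading ones of each), and the capitals mark the inserted A bases.
Commonest of 3 bases, in 53 alleles: gAA
Next of 3 bases, in 45 alleles: ggA
Commonest of 4 bases, in 21 alleles: gAAA
Next of 4 bases, in 20 alleles: ggAA
Commonest of 5 bases by UMIs, in 10 alleles: gAAAA
The other of 5 bases, in 10 alleles: ggAAA

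Each of these 6 strings begins with G and ends with A. The rare long strings looked different, and 5 of the 7 that had 26 to 31 bases are shown to make their shared stretches visible. They were picked after their sequences were seen, and the 2 left out, of 28 and 27 bases, nearly repeat the string of 29 bases. Capitals mark the longest stretch, of 12 bases or more, that a string shares with another string of 10 or more bases at this cut.
31 bases, 1 UMI: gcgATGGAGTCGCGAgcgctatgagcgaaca
29 bases, 1 UMI: aTCTGCGTGCTACGTATCGACTCCATATa
28 bases, 2 UMIs: ATCTGCGTGCTACGTATCGACTCCATcg
27 bases, 2 UMIs: gacgtgtacgcatacTATCGACTCCAT
26 bases, 1 UMI: actATGGAGTCGCGActgtacgcaca

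Most insertions were short. A single base was inserted in 1962 alleles (50.6%, 49.0 to 52.2%), 2 bases in 1414 (36.5%, 35.0 to 38.0%) and 3 bases in 311 (8.02%, 7.19 to 8.92%). Together 95.1% of the insertions had 1 to 3 bases (94.4 to 95.8%). The median was 1 base and the mean 1.75 ± 1.49 bases (SD over 3876 alleles). Longer strings were rarer, with 106 alleles at 4 bases, 43 at 5, 20 at 6, 7 at 7, 2 at 8 and 2 at 9. No insertion had 10 to 13 or 17 to 25 bases. Of the 9 alleles with 10 or more inserted bases, 7 had 26 to 31 bases, near the 27 bases of a repeat unit, and these 7 alleles held 9 UMIs in all.

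Among single bases, G was inserted in 877 alleles (22.6% of insertions, 21.3 to 23.98%), A in 778 (20.1%, 18.8 to 21.4%) and T in 307 (7.92%, 7.09 to 8.82%). C was written at this position in 0 of 3876 alleles, and no longer string began with C either. The empty place for C has a counterpart 1 base on, between bases 23 and 24, where C alone was listed in 281 alleles.

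The placement of insertions in the list bears on this gap. Base 23 of the array is C, as stated by all 31 listed substitutions at that position. An inserted C before base 23 spells the same array as an inserted C after it. The list held 388 insertions between bases 23 and 24, with 720 UMIs. Of these, 386 ended in C, so each of the 386 can be written at cut 1 as a string that begins with C. The same gap appeared at each of the 10 cuts: strings that begin with the base after the cut were listed at 0 there, where that base was C at 9 cuts and A at the cut of site 9. Other places near cut 1 were almost empty, with 10 insertions between bases 21 and 22, 2 between bases 24 and 25 and 0 at the next base on either side.

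Respelling the 386 strings at cut 1 gave 4262 alleles with 8188 UMIs (33.4% of alleles), a definition chosen after the data were seen. C then made up 12.5% of 2243 single-base insertions and was the sixth commonest string (rank 6). All 16 pairs of bases were then present, with CA in 36 alleles, CG in 26, CT in 19 and CC in 8. The number of different strings was 150 with the respelled ones and 134 as the list writes them.

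Purines dominated the inserted bases. Of 6791 inserted bases, each allele counted once, 43.8% were G (42.6 to 45.0%), 41.2% A (40.0 to 42.3%), 11.8% T (11.1 to 12.6%) and 3.24% C (2.83 to 3.69%). A and G together made up 84.9% (84.0 to 85.8%). With the respelled strings, C made up 8.58% and A and G together 80.1% (79.1 to 81.0%). The written position thus lowers the share of C at cut 1 by more than the counting interval, and the order of G, A, T and C was the same both ways.

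The pairs of bases were dominated by 4 of the 12 that the list holds at this cut. GG was inserted in 363 alleles (9.37%), AG in 298 (7.69%), GA in 238 (6.14%) and AA in 173 (4.46%). Pairs with a pyrimidine were rarer: AT in 71 alleles, TA in 52, GT in 49, GC in 47 and AC in 42. The rarest were TG in 36 alleles, TC in 24 and TT in 21. The intervals of GG (8.47 to 10.3%) and AG (6.87 to 8.57%) overlapped.

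Longer strings held more A, and the A lay towards base 23. Strings of 1 to 3 bases were 39.1% A and 46.4% G, whereas strings of 4 to 9 bases were 60.2% A (56.8 to 63.5%) and 31.5% G (28.3 to 34.7%, 842 bases in 180 alleles). Along the 106 strings of 4 bases, G made up 61.3% at base 1, 46.2% at base 2, 22.6% at base 3 and 15.1% at base 4. A made up 28.3%, 43.4%, 69.8% and 76.4% at the same places. Among the 43 strings of 5 bases, 69.8% of first bases were G (53.9 to 82.8%) and 90.7% of last bases were A (77.9 to 97.4%). Pairs did not show this order, since G made up 49.3% of first and 49.3% of second bases, and A 41.3% and 32.7%.

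Strings made of G followed by A alone, such as GAA or GGAA, were counted after this order had been seen. They made up 178 of the 491 strings of 3 to 9 bases at cut 1 (36.3%, 32.0 to 40.7%). Strings of A followed by G made up 25 (5.09%, 3.32 to 7.42%). Strings of one base only made up 57, of which 40 were all A and 17 all G. At the other 9 cuts the same classes held 488 of 1358 strings (35.9%, 33.4 to 38.6%) and 78 (5.74%, 4.57 to 7.12%), and the intervals overlapped those of cut 1. Most of these strings lay at cut 10, with 336 and 58 of its 980 strings in these classes, so the pooled shares rest mainly on that cut. Base 22 is A, as 3 substitutions state, and a string that ends in A there can also be spelled 1 base to the left with that A in front. At the 3 cuts with G before and C after the cut, this respelling of strings that end in A does not apply. There 20 of 52 strings were G followed by A (38.5%, 25.3 to 53.0%) and 6 were A followed by G. Strings that end in G can be respelled there in the same way. The G rests on 1 or 2 substitutions per cut, and 37 of the 52 strings lay at cut 8.

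Few strings made up most of the insertions. The 7 commonest strings, each in 100 or more alleles, accounted for 78.3% of the members (76.9 to 79.6%) and for 6117 of their 7473 UMIs. At the other end, 66 of the 134 different strings occurred in 1 allele, and 38 in 2 to 9 alleles. These counts depend on depth: 50 strings rested on 1 UMI, and alleles with at least 2, 3 or 5 UMIs held 71, 47 or 30 different strings. All 3 single bases that can be listed here and all 12 such pairs were present, whereas 37 of 48 possible strings of 3 bases and 36 of 192 of 4 bases were. With 311 insertions of 3 bases and 106 of 4 bases to fill these places, strings that were missing may have been too rare to detect at this depth.

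The 31 strings of 6 to 9 bases were rich in A, which made up 70.4% of their bases (63.7 to 76.6%). Of these strings 6 were A alone and 8 were G followed by A. The longest of them, of 9 bases, were a run of 9 A and AGATGGAGT, each with 1 UMI, and 2 alleles held a run of 7 A. The longest strings in alleles with 3 or more UMIs were AAAAAG, with 8 UMIs beside deletions of bases 43 to 238 (with an inserted C) and 266 to 268, and TGGAGT, with 4 UMIs beside a deletion of bases 48 to 268. The string TGGAGT recurred in 2 further alleles with 1 UMI each, and these letters also end the string AGATGGAGT, which had 1 UMI.

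The long strings had another base composition. The 9 strings of 10 or more bases were 46.9% A and G (40.3 to 53.6%) and 28.3% C (22.5 to 34.7%, 226 bases). The stretch of 27 bases in capitals in the string of 29 bases was held whole by 6 alleles of the library within inserted bases, and 3 of these were members, among them the 2 long strings not shown. The stretch of 12 bases in capitals in the string of 31 bases was found in 2 other alleles, and its reverse complement in 119. For the strings of 16 and 14 bases no shared stretch of 12 bases was found. These strings were not compared with the array, whose sequence was not used here.

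Every member also carried a deletion that joined 2 or more target sites, as 8890 of the 8891 other alleles did. Members were chosen with no base lost at the cut of the insertion, so a joining deletion across that cut was excluded by the choice. The joining deletion of a member could thus only begin to the right of the insertion. In every member it began at site 2 or beyond, and the shares by start site below hold under this choice. The leftmost one had a median length of 162 bases (quartiles 108 and 189, range 25 to 230). All deletions of an allele together removed a median of 188 bases. In 2113 members this deletion began at site 2 (54.5%, 52.9 to 56.1%), in 1287 at site 3 (33.2%, 31.7 to 34.7%), in 301 at site 4 and in 130 at site 5. Its start lay within 3 bases of the cut of site 2 or 3 in 80.3% of members (79.0 to 81.6%), and exactly after one of these cuts in 1568 and 1009 members.

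The site pairs joined by that deletion had no single favourite. Sites 3 and 10 were joined in 647 members (16.7%) with 1275 UMIs, and sites 2 and 9 in 558 (14.4%) with 1201 UMIs. Sites 2 and 10 were joined in fewer members, 421 (10.9%), but in more UMIs, 1804. Inserted bases were written within the leftmost joining deletion in 47.3% of members (45.7 to 48.9%). A deletion of array base 1 alone accompanied 27 members (0.697%) and 60 of the 8891 other alleles (0.675%).

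Many members had a second insertion at another cut. An insertion written exactly at the cut of site 2 accompanied 1197 members (30.9%, 29.4 to 32.4%). In the whole library of 12767 alleles, 1638 held an insertion there. One at the cut of site 10 accompanied 1249 members (32.2%, 30.8 to 33.7%), against 3738 of the 8891 other alleles (42.0%, 41.0 to 43.1%). This difference was not tested, since the alleles come from 1 library. An insertion can be written only at a cut that no deletion has removed. Alleles that keep each cut were not counted, so these are not shares of such alleles. The string at cut 1 was a single base in 49.0% of members with a single base at cut 2 (45.2 to 52.9%) and in 52.7% of members with a longer string there (48.3 to 57.1%). For cut 10 these shares were 54.4% (49.7 to 59.1%) and 52.7% (49.2 to 56.2%). In each case the intervals overlapped. Both strings were identical in 145 of the 1197 members with an insertion at cut 2 (12.1%) and in 145 of the 1249 with one at cut 10 (11.6%). Of pairs of strings, 327 different ones were found with cut 2 and 386 with cut 10.

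String length and composition also varied little with the deletion that followed. Single bases made up 50.4% of the insertions where the leftmost joining deletion began exactly after cut 2 (47.9 to 53.0%). They made up 48.1% where it began exactly after cut 3 (44.9 to 51.2%) and 52.8% elsewhere (50.1 to 55.6%). A and G made up 84.1%, 85.7% and 85.3% of inserted bases in these 3 sets. Mean UMIs per allele were 2.28, 1.67 and 1.71.

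The same set of other edits recurred with different strings at cut 1. Leaving out the insertion, the 3876 members had 3118 different sets of other events, and 280 of these sets were found with 2 or more strings. Such shared sets held 1038 members (26.8%) and 3220 of the member UMIs (43.1%). Members on shared sets had 3.10 UMIs on average, and those whose other edits were found with 1 string had 1.499. Mean UMIs also differed with the number of events, at 3.89 in members with 2 events and 1.996 with 3. The part of the event number in this contrast was not tested. In 61 cases the set of other edits was also listed as an allele of its own, with no edit written at cut 1.

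The deletion of bases 50 to 264 went with 22 different strings, more than any other set, and these alleles held 242 UMIs. A had 79 UMIs, G had 44, GG had 31 and AG had 27. T had 11 UMIs, GA had 10, AA had 8 and TA had 6. The other 14 strings had 1 to 4 UMIs, among them the string of 28 bases shown above with 2 UMIs. The inserted C written between bases 23 and 24 had 20 UMIs with this deletion, and the deletion alone had 3 UMIs.

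With a deletion of bases 50 to 265 that itself carried an inserted G, 18 strings were found in 189 UMIs. G had 59 UMIs, AG had 24, A had 23 and GA had 20, while the deletion with no insertion at cut 1 had 7 UMIs. A different spread was seen with the deletion of bases 50 to 263, which went with 15 strings in 194 UMIs. There GG had 157 UMIs, A had 9, G had 8 and GTAA had 4, so 1 string held most of the UMIs. GG was not the leading string in the other 9 sets of edits with the most strings.

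Those other sets of edits were of the same kind. The deletion of bases 50 to 265 with inserted GG went with 18 strings, with inserted AG with 16 and with inserted T with 13. The deletions of bases 51 to 265, 46 to 267 and 48 to 268 went with 14, 13 and 12 strings. The only 1 of the 10 sets with 2 events was an inserted A at the cut of site 2 with a deletion of bases 77 to 264, which went with 11 strings. In each of the 10 sets the single bases A, G and T were all present.

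Member alleles were small. They had 1.93 ± 3.73 UMIs on average (SD over 3876 alleles), a median of 1 and a maximum of 157. The 8891 other alleles had 2.80 ± 21.005 UMIs on average, a median of 1 and a maximum of 1589. A single UMI supported 67.4% of the members (65.9 to 68.8%) and 61.3% of the other alleles (60.3 to 62.3%). Of the members 60 had 10 or more UMIs (1.55%), against 241 of the others (2.71%).

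The number of events per allele moved with these values. No member consisted of the insertion alone, since each also carried a deletion that joined targets. Of the other alleles 431 had 1 event, with 14.6 UMIs on average. Among alleles with 2 events, the 489 members had 3.89 UMIs on average (median 2) and the 2414 others 3.26 (median 1). With 3 events the means were 1.996 in 1590 members and 2.006 in 3021 others, and with 4 events 1.43 in 964 members and 1.61 in 1779 others. With 5 events they were 1.23 in 527 members and 1.46 in 722 others, and with 6 events 1.20 in 239 and 1.51 in 339. Members were thus higher with 2 events and lower with 4, 5 and 6. With 7 and 9 events they were also lower and with 8 and 10 higher, in at most 46 members each. The part of the event number in the overall difference was not tested.

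Mean UMIs were 2.05 for members with 1 inserted base, 1.89 with 2, 1.61 with 3, 1.72 with 4 and 1.26 with 5. The median was 1 at each of these lengths. The most abundant member had GG inserted and lacked bases 50 to 263, with 157 UMIs (2.10% of member UMIs, rank 8 in the library). The next had an inserted A and lacked bases 50 to 264, with 79 UMIs, and the third had an inserted G and lacked bases 50 to 265 with another G there, with 59 UMIs. The seventh had an inserted A, a further AG at the cut of site 2 and a deletion of bases 77 to 268, with 28 UMIs. The 10 most abundant members held 6.74% of the member UMIs (6.19 to 7.34%, an interval that ignores their choice by UMIs).

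Set beside the other cuts, cut 1 held the second largest number of insertions. The cut of site 10 had 4987, that of site 2 had 1638, that of site 9 had 1055 and the inner cuts 3 to 8 had 163 to 552 each. Deletions that join targets remove cuts, and alleles that keep each cut were not counted. These counts are thus not rates of insertion per cut. Inserted strings averaged 1.75 bases at cut 1 and 2.04 at cut 10. Single bases made up 50.6% at cut 1, 34.3% at cut 10 (33.0 to 35.6%), 56.7% at cut 2 (54.3 to 59.1%) and 78.3% at cut 9 (75.7 to 80.7%). At cuts 4 to 8 single bases made up 62.9 to 74.2%. The interval of this share overlapped that of cut 1 at cut 3 (43.9 to 53.1%) and at none of the other 8 cuts. These differences were not tested, and an allele can hold insertions at several cuts. The strings G, A and GG led at cut 1 with 22.6%, 20.1% and 9.37%, and at cut 10 with 14.2%, 13.8% and 13.3%.

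Pooled over cuts 2 to 10, A and G made up 85.1% of inserted bases (84.6 to 85.6%), beside 84.9% at cut 1. The difference, cut 1 minus the pooled cuts, was -0.20 percentage points as written and -1.53 with strings respelled at each cut. Single cuts lay further apart. As written, the share was 88.6% at cut 4 (85.8 to 91.0%) and 89.2% at cut 8 (86.9 to 91.2%). A alone made up 52.7% at cut 8 as written (49.3 to 56.1%), beside 41.2% at cut 1. With strings respelled at each cut, A and G made up 80.1% at cut 1 (79.1 to 81.0%) and 82.3% at cut 10 (81.6 to 83.0%). They then made up 82.7% at cut 4 (79.7 to 85.5%) and 81.6% at cut 8 (79.0 to 84.0%), and both intervals overlapped that of cut 1. The lowest respelled share was 72.0% at cut 6 (67.9 to 75.9%). At the cut of site 9 the share as written was 69.9% (67.5 to 72.3%), where strings that begin with A are the ones written 1 base on, and it was 79.2% with those strings respelled (77.4 to 80.8%).

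The window of site 1, the last 7 bases of the target, was altered in other ways in most of the remaining alleles. A deletion that joined targets touched this window in 6752 alleles (52.9%) with 20687 UMIs. A local deletion touched it in 902 alleles (7.07%), and a local deletion with inserted bases in 513 (4.02%). The cut itself can lie at the edge of such deletions or outside them. The window was untouched in 281 alleles (2.20%, 1.95 to 2.47%).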

How the data were processed

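Per the labels' protocols, RNA of a liver lobe was reverse transcribed with a UMI-tagged primer, and the array at Col1a1 was amplified by nested PCR. Per the submitters' processing notes, the build was mm10. Neither the allele-calling program with its settings and filters nor the read depth is stated in the labels or files. The authors deposited 1 list of edits per allele and 1 list of 12-base UMIs in the same order, with no header and no counts; UMIs per allele were counted here from that list.

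Lines were split at commas, and events with the position 22_23 and an insertion were taken. A deletion joined targets when it touched the last 7 bases of 2 or more. Shares have exact binomial (Clopper-Pearson) 95% intervals. No test was run, since 1 library gives no groups. The members, lists and measures were chosen with earlier results of these data known. Strings named were single bases, pairs, the 10 commonest, the 5 commonest of 3, 4 and 5 bases and the 5 longest with 3 or more UMIs. Deletions named were the 10 found with the most strings, and alleles the 10 with the most UMIs. Parsing was tested on simulated data. Python 3.11.15 and scipy 1.17.1 were used.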

Additional observations from a re-analysis of the deposited data

How the results depend on the processing

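No paired analysis was possible because 1 sample was analysed. Of 57 values under 11 alternative settings, 28 lay within the interval, count range or spread of the reported value and 29 did not. Some of the 28 could hardly move. Joining UMIs that are 1 base apart leaves all values that count alleles unchanged, and leaving out the largest member drops 1 of 3876. The spread for mean UMIs was the SD over alleles (3.73), so a mean of 3.84 at 2 or more UMIs, against 1.93, lay within it. Keeping alleles with at least 2, 3 or 5 UMIs gave 26.9%, 24.9% and 21.5% of alleles with the insertion, 71, 47 and 30 different strings, and 85.1%, 87.0% and 89.8% with the leftmost joining deletion starting at cut 2 or 3. At 3 and 5 UMIs, 96.7% and 96.9% of insertions had 1 to 3 bases, A and G made up 86.9% and 87.8%, and mean UMIs were 5.84 and 10.01, by construction of the minimum. Alleles with 2 or 3 events gave 27.7% with the insertion, 94.1% with 1 to 3 bases and 91.4% with that deletion start. Weighting by UMIs gave 23.1%, 96.1%, 86.4% A and G and 84.1%. Counting each string once gave 38.8% with 1 to 3 bases and 68.3% A and G. Including the neighbouring positions gave 33.5% of alleles and 80.0% A and G. The respelling, chosen after seeing the data, gave 33.4% and 80.1%, and a difference in A and G between cut 1 and cuts 2 to 10 of -1.53 percentage points, against -0.20 as written. The number of UMIs per allele limits the rare strings most: 50 of 134 strings rest on 1 UMI.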
